A study of Homo sapiens with 6 samples.

Results

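The miRNAs described here are 39 guide-strand probes, out of 581 probes and 386 guide-strand probes measured, for human miRNAs numbered from 320 to below 500. They were chosen by number: every probe named without an asterisk and without a precursor suffix in that number range was taken. Listed members of other clusters and families were left out. The rule used no values, but it was set with earlier results of these data known. The 39 probes carry 31 distinct miRNA names, because 8 miRNAs were measured on both arms of the hairpin. Guide strand here refers to the probe name alone, and which arm of these 8 is mainly used was not tested. The cells were Hep3B, a line from a human hepatocellular carcinoma, transfected with a Lipofectamine reagent. The Mock group (3 arrays) received the empty plasmid pcDNA3.1 and the HDAC6 group (3 arrays) the same plasmid carrying HDAC6, a mainly cytoplasmic deacetylase. The series title gives the question as HDAC6's control of miRNAs in liver cancer. Per the labels, RNA of 3 extractions was pooled for each condition, so the 3 arrays of a group may be repeated hybridizations of 1 pool, and every p-value measures only the spread between arrays. The level of HDAC6 itself was not measured on these arrays.

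A miRNA is cut from a hairpin RNA: Drosha releases the precursor, Dicer cuts off its loop, and 1 of the 2 arms is loaded into an Argonaute protein. The loaded strand finds its target mRNAs mainly through the seed near its 5′ end, and the other arm is usually degraded. Both arms of a hairpin start from the same transcript in equal number, so their relative levels depend on strand choice and stability, and arms with different seeds have different targets.

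The hairpins of the 4 miRNAs whose arms were compared most closely are printed first, because their arms did not move equally or lay near the threshold. The arms are in capitals, with the 5p arm first, and the sequences are from RefSeq (GRCh38.p14). MIR324 lies on the minus strand at chr17:7223297-7223379, within the bounds of ACADVL. MIR423 lies on the plus strand at chr17:30117079-30117172, within NSRP1. MIR342 lies on the plus strand at chr14:100109655-100109753, within EVL, and MIR338 on the minus strand at chr17:81125883-81125949, within AATK. Whether these sites are exonic or intronic, or on the same strand as the gene, was not read here.
MIR324: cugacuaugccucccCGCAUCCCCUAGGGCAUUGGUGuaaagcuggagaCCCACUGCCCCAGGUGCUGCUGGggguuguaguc
MIR423: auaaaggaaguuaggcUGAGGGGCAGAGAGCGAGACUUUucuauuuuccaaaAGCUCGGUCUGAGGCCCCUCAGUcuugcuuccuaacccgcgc
MIR342: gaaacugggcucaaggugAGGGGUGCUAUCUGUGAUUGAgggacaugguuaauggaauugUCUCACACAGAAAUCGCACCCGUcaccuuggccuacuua
MIR338: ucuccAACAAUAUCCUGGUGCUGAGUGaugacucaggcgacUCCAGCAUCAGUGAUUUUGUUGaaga

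The mature sequences below are those of other members that changed or that share a seed with another member, where the table used holds one. The seed, bases 2 to 8, is in capitals. In RefSeq, miR-320b, miR-320c and miR-320d share the seed AAAGCUG, miR-378 and miR-422a share CUGGACU, and miR-326 and miR-330-5p share CUCUGGG. No other seed was shared among the 34 members with a sequence in the table used. Seeds of the remaining members, miR-320a, miR-374a, miR-422b, miR-425 and miR-453, were not compared.
miR-320b: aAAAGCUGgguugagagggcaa
miR-320c: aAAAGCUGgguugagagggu
miR-320d: aAAAGCUGgguugagagga
miR-378: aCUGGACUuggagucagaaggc
miR-422a: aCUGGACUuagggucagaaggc
miR-326: cCUCUGGGcccuuccuccag
miR-330-5p: uCUCUGGGccugugucuuaggc
miR-331-3p: gCCCCUGGgccuauccuagaa
miR-331-5p: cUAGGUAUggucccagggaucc
miR-374b: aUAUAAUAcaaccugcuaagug
miR-346: uGUCUGCCcgcaugccugccucu
miR-361-3p: uCCCCCAGgugugauucugauuu
miR-455-3p: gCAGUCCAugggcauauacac
miR-484: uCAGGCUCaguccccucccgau
miR-492: aGGACCUGcgggacaagauucuu

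The values are quantile-normalized log2 signals deposited by the authors. Array medians were held between 7.51 and 7.58 by that normalization. Fold changes are therefore relative to the rest of the array, and a shift of the whole miRNA pool would be hidden. The low end of the arrays was not equal: the lowest value was 4.81 to 5.89 on the Mock arrays and 3.52 to 4.81 on the HDAC6 arrays. In bulk RNA, fewer cells expressing a miRNA and less of it per cell cannot be told apart. Across probes, r was 0.922 to 0.959 between arrays within a group and 0.779 to 0.848 between arrays from opposite groups. Among fixed cell type markers, 2 of the 3 hepatocyte probes (miR-192 and miR-194) fell. The liver-specific miR-122 was at 7.42 ± 0.20 (SD, n = 3) in Mock and 7.82 ± 0.27 in HDAC6, and it did not pass the test. All HDAC6 arrays lay above all Mock arrays for miR-122, by a narrow margin. The summed hepatocyte signal, on log2, was 13.4 to 13.9 in Mock and 11.2 to 12.6 in HDAC6. That sum is mostly the signal of miR-192 and miR-194, at 13.15 and 12.02 in Mock. The only blood marker probe, miR-150, did not pass, and its signal was 6.77 to 8.24 in Mock and 7.48 to 7.77 in HDAC6. Of 4 fibroblast and smooth muscle markers miR-214 rose and the other 3 did not pass, and their summed signal was 9.49 to 9.59 in Mock and 10.1 to 10.6 in HDAC6. The brain marker miR-128a fell, from 7.33 to 8.07 down to 5.94 to 6.29. Of the islet markers miR-7 fell and miR-375, a member itself, did not pass, with summed signals of 8.58 to 9.07 in Mock and 8.08 to 8.28 in HDAC6. No endothelial or striated muscle marker was among the probes used. The part of these shifts in the results was not tested.

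In HDAC6-transfected cells 15 of the 39 probes fell and 2 rose, whereas 22 did not pass the test (limma, Benjamini-Hochberg adjusted p under 0.05 over all 581 probes). Among all probes 24.4% fell and 21.3% rose, and among guide strands 29.5% and 20.7%, against 38.5% and 5.13% of the members. The falls included miR-342-3p, miR-374a, miR-338-3p, miR-324-5p, miR-320d and both arms of miR-331. The rises were miR-346 and miR-423-5p. The median log2 fold change of the members was -0.48, with a range from -1.77 to 0.78, and 32 members lay below 0 and 7 above. The median over all probes was -0.09, and it was 0.08 with repeated quantile normalization, where the members' median was -0.43. The 3 Mock and 3 HDAC6 values did not overlap for 22 members that were lower and 3 that were higher. That is 64.1% of the members, against 56.8% of all probes and 61.9% of guide strands. The number that fell was 9 when the arrays were centred on the control probes and 8 without HDAC6 array 1. The number that rose was 0 with control centring, and 0 or 1 without any single array.

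**Figure D1:**
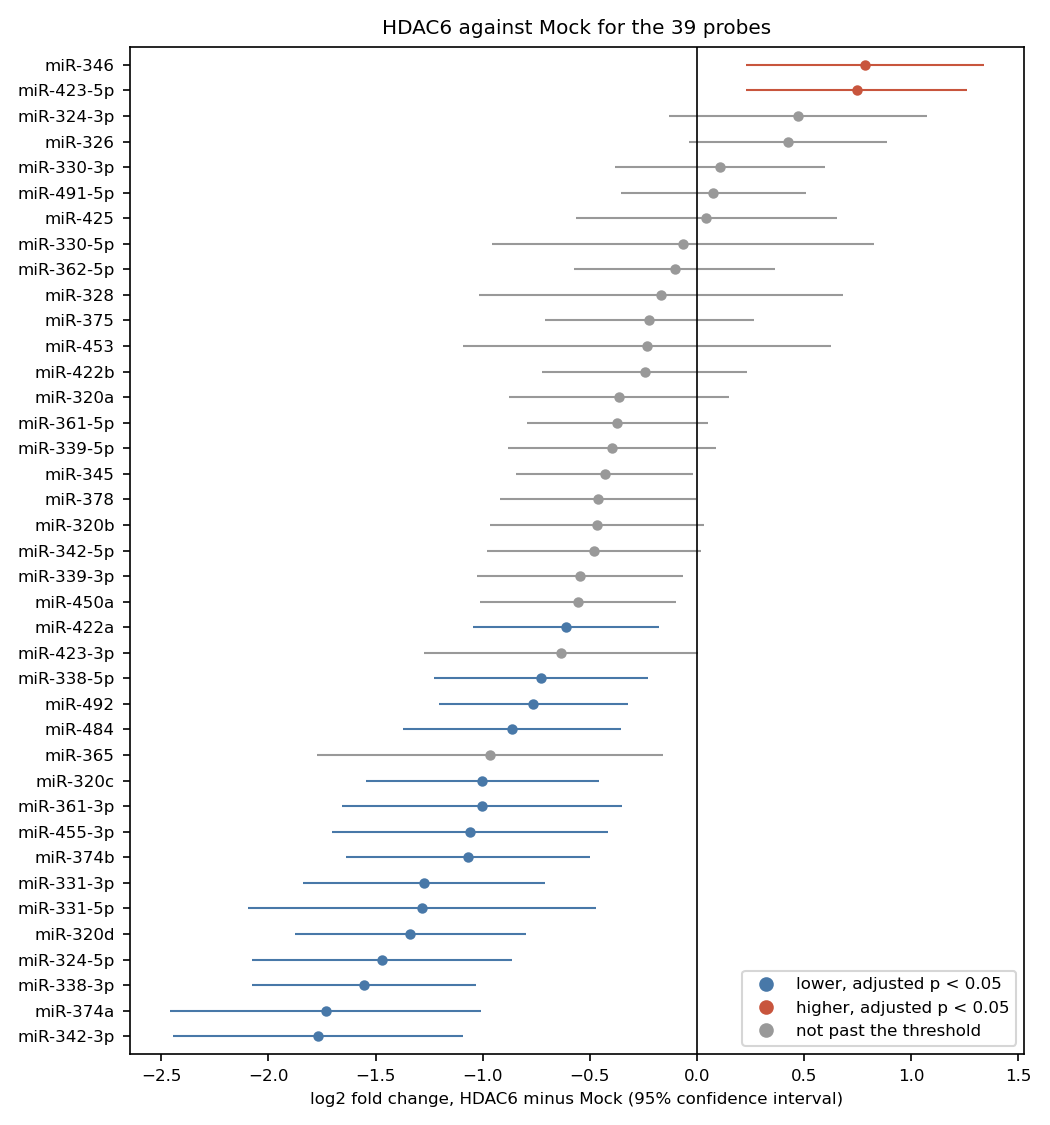
Log2 fold change (HDAC6 minus Mock, n = 3 arrays each) of the 39 probes on the x axis, with 95% confidence intervals from limma and colours for the 15 that fell, the 2 that rose and the 22 that did not pass. The fold changes run from -1.77 for miR-342-3p to 0.78 for miR-346, and most points lie left of 0.

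The members' mean log2 signals ran from 5.89 to 10.32 in Mock and from 4.85 to 10.87 in HDAC6. Their replicate spread was similar in size in the 2 groups, with a median SD per member of 0.26 for Mock and 0.188 for HDAC6. Signals of different probes depend on the probe as well as on the miRNA, so they are not ranked as amounts.

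**Figure D2:**
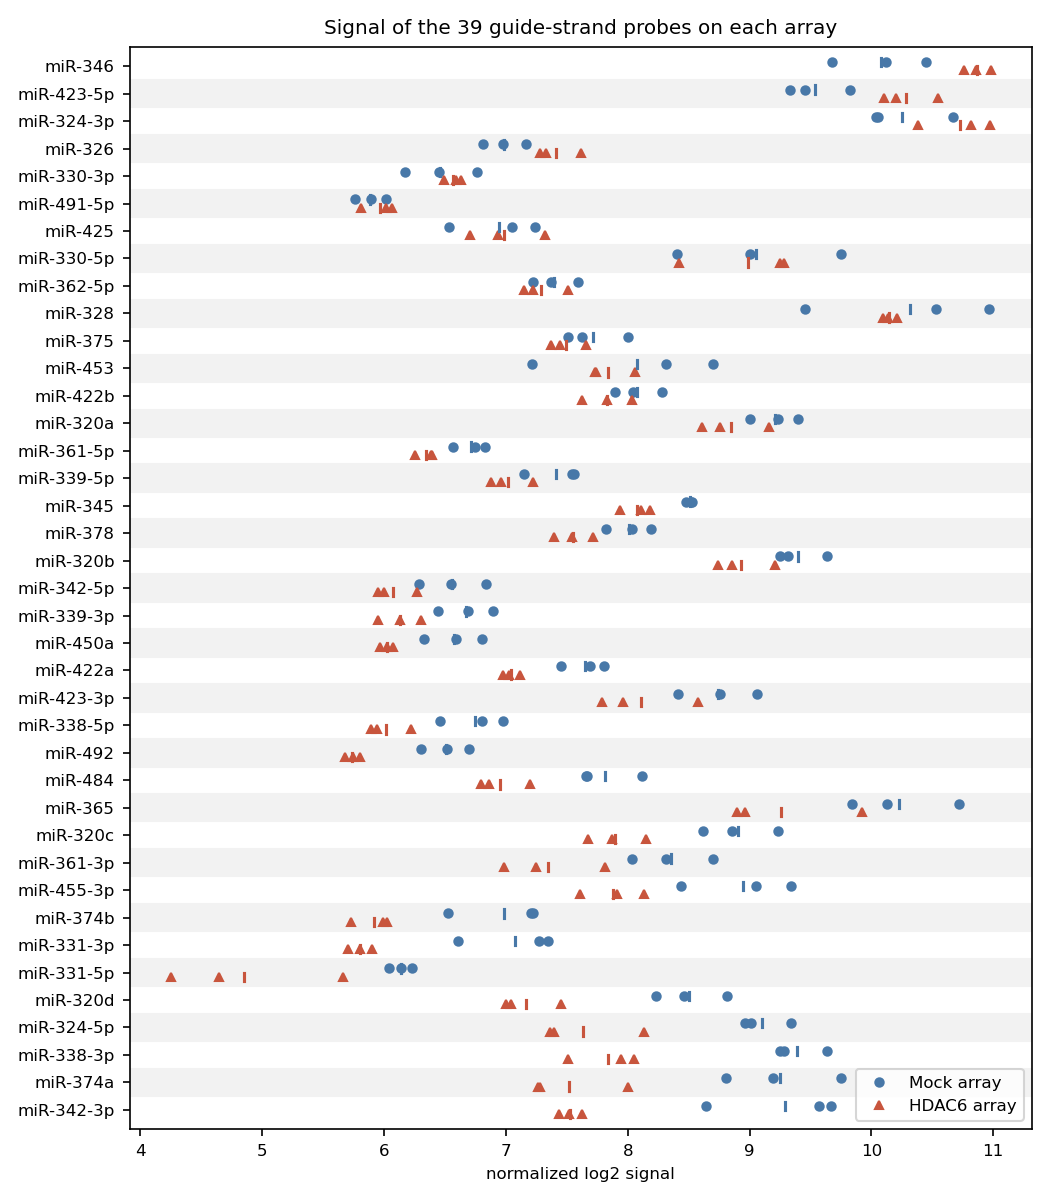
Normalized log2 signal (x axis) of each of the 39 probes (y axis) on the 3 Mock arrays (circles) and the 3 HDAC6 arrays (triangles). The marks of the groups are apart for 25 probes, with HDAC6 lower for 22 and higher for 3, and mixed for the other 14.

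MiR-342-3p, which is made from within the EVL gene and is abundant in blood cells, had the lowest fold change of the members. Its log2 signal was 9.57, 9.67 and 8.64 on the Mock arrays and 7.62, 7.51 and 7.44 on the HDAC6 arrays. Here the lowest Mock array lay above the highest HDAC6 array by more than the spread among the HDAC6 arrays. The fall was 3.41-fold (log2 fold change -1.77, SE 0.292, limma adjusted p = 0.00359).

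MiR-374a and miR-374b are X-linked miRNAs made from the noncoding gene FTX, close relatives whose probes may bind each other's target. The signal of miR-374a was 8.81, 9.19 and 9.75 in Mock and 7.26, 7.28 and 8.0 in HDAC6. That of miR-374b was 7.21, 6.53 and 7.22 in Mock and 5.73, 6.03 and 5.99 in HDAC6. The groups were apart for both miRNAs. MiR-374a fell 3.33-fold (log2 -1.73, SE 0.313, limma adjusted p = 0.00469) and miR-374b 2.10-fold (log2 -1.07, SE 0.245, adjusted p = 0.011). With the offset of the 25th percentile, which pulls dim probes towards 0, the log2 fold change of miR-374b was -0.52 and it still passed. The difference between the relatives was 2.26 ± 0.58 in Mock and 1.60 ± 0.38 in HDAC6 (SD, n = 3, exact permutation p = 0.2, two-sided), and the groups overlapped. With 3 against 3 arrays that p cannot go below 0.1, so the test could not have passed and does not show the falls to be equal.

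MiR-338-3p, from within AATK, acts in oligodendrocyte differentiation and has been reported as a growth suppressor in liver cancer. It was at 9.64, 9.25 and 9.28 in Mock and at 8.05, 7.51 and 7.94 in HDAC6. All HDAC6 arrays lay more than 1 log2 unit below every Mock array. The fall was 2.94-fold (log2 -1.55, SE 0.225, limma adjusted p = 0.00282), which was the lowest adjusted p among the members. Its other arm, miR-338-5p, was at 6.80, 6.98 and 6.46 in Mock and 6.22, 5.94 and 5.89 in HDAC6. MiR-338-5p fell by 0.73 (SE 0.215, limma adjusted p = 0.0266). That call was lost without Mock array 1 (0.0762) or 2 (0.068), without HDAC6 array 1 (0.0512), 2 (0.0625) or 3 (0.0851), with repeated quantile normalization (0.143), with control centring (0.19) and with the offset (0.053, log2 -0.35).

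MiR-324-5p is known to repress the Hedgehog pathway genes SMO and GLI1. Its signal was 9.01, 8.96 and 9.34 on the Mock arrays and 7.40, 8.13 and 7.37 on the HDAC6 arrays. No values overlapped, and HDAC6 array 2 lay nearest to Mock. It fell 2.77-fold (log2 -1.47, SE 0.262, limma adjusted p = 0.00446).

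Both arms of miR-331 fell. MiR-331-3p, which targets the receptor gene ERBB2, was at 7.27, 6.61 and 7.35 in Mock and at 5.80, 5.90 and 5.70 in HDAC6. The fold change was -1.27 on log2 (SE 0.243, limma adjusted p = 0.00513), and -0.62 with the offset. MiR-331-5p was at 6.23, 6.04 and 6.14 in Mock and at 4.25, 5.67 and 4.64 in HDAC6, so the HDAC6 arrays differed more among themselves than the Mock arrays did. Its fold change was -1.28 (SE 0.35, limma adjusted p = 0.0197), and -0.40 with the offset. The call of miR-331-5p was lost with repeated quantile normalization (0.0587) and without Mock array 1 (0.0613), HDAC6 array 1 (0.0597) or HDAC6 array 3 (0.0655).

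Of the miR-320 probes, miR-320c and miR-320d fell, and miR-320a and miR-320b did not pass. The miR-320a hairpin is known for entering the pathway without Drosha. The b, c and d forms differ from each other only at the 3′ end. MiR-320b and miR-320c share their first 19 bases, and miR-320d shares 18 with either. MiR-320d was at 8.46, 8.24 and 8.81 in Mock and at 7.05, 7.45 and 7.0 in HDAC6. MiR-320c was at 8.85, 8.62 and 9.23 in Mock and at 7.67, 8.15 and 7.87 in HDAC6. Neither miRNA had overlapping groups. MiR-320d fell by 1.34 (SE 0.232, limma adjusted p = 0.00406) and miR-320c by 1.0 (SE 0.235, adjusted p = 0.0115), the latter not past with control centring (0.0583). MiR-320b was at 9.31, 9.25 and 9.64 in Mock and at 8.74, 9.21 and 8.85 in HDAC6, a log2 fold change of -0.47 (limma adjusted p = 0.113). MiR-320a was at 9.23, 9.0 and 9.39 in Mock and at 8.61, 9.16 and 8.76 in HDAC6, a fold change of -0.36 (adjusted p = 0.209), and of these 4 probes only that of miR-320a had overlapping groups.

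Within an array, miR-320d minus miR-320b was -0.90 ± 0.10 on log2 in Mock and -1.77 ± 0.08 in HDAC6 (SD, n = 3). For miR-320c minus miR-320b the difference was -0.50 ± 0.11 in Mock and -1.03 ± 0.05 in HDAC6. The groups did not overlap for either difference. Each gave an exact permutation p of 0.1 (two-sided), the smallest that 3 against 3 arrays allow, and 0.233 after adjustment over the 7 differences between relatives that were tested, so neither passes. The shift was -0.87 for miR-320d and -0.54 for miR-320c. Since these sequences are nearly identical, each probe may also have bound the other forms, and the difference in shift is uncertain to that extent.

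The remaining members that fell did so by 0.61 to 1.06 on log2. MiR-455-3p, made from within the cartilage collagen gene COL27A1, was at 9.06, 8.44 and 9.34 in Mock and at 7.61, 8.13 and 7.91 in HDAC6 (log2 -1.06, SE 0.277, limma adjusted p = 0.0171). MiR-361-3p, from within CHM, was at 8.70, 8.32 and 8.04 in Mock and at 6.98, 7.25 and 7.82 in HDAC6 (log2 -1.0, SE 0.281, adjusted p = 0.0221). Both had groups apart by a narrow margin. MiR-455-3p was not past without Mock array 1 (0.0556) or HDAC6 array 1 (0.0628). MiR-361-3p was not past with control centring (0.0583) or without Mock array 1 (0.0758), HDAC6 array 1 (0.0811) or HDAC6 array 2 (0.0547).

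MiR-484, reported to act on the mitochondrial fission gene FIS1, was at 7.67, 7.66 and 8.11 in Mock and at 6.86, 7.20 and 6.79 in HDAC6. MiR-492, whose sequence derives from keratin 19, was at 6.30, 6.51 and 6.70 in Mock and at 5.80, 5.74 and 5.68 in HDAC6. All Mock arrays lay above all HDAC6 arrays for both. MiR-484 fell by 0.86 (SE 0.22, limma adjusted p = 0.0155) and miR-492 by 0.76 (SE 0.191, adjusted p = 0.015). With the offset these fold changes were -0.55 and -0.33. The call of miR-484 was lost with control centring (0.104) and without HDAC6 array 1 (0.0597) or 3 (0.0546). That of miR-492 was lost with control centring (0.159), repeated quantile normalization (0.134) and without HDAC6 array 1 (0.0501).

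MiR-422a, known to repress the bile acid enzyme gene CYP7A1 in hepatocytes, was at 7.45, 7.69 and 7.81 in Mock and at 7.02, 7.12 and 6.98 in HDAC6. It fell by 0.61 (SE 0.188, limma adjusted p = 0.0303), and by 0.39 with the offset. The call was lost with control centring (0.283), with the replicate block (0.0565) and without Mock array 2 (0.0618), Mock array 3 (0.0701), HDAC6 array 1 (0.106) or HDAC6 array 3 (0.0889). MiR-378, made from within PPARGC1B, differs from miR-422a at 2 of 22 positions. It was at 8.03, 7.82 and 8.19 in Mock and at 7.40, 7.54 and 7.72 in HDAC6, and its fold change of -0.46 did not pass (adjusted p = 0.0911). The probe for miR-422b, an older name of miR-378, had a fold change of -0.24 (adjusted p = 0.366). The differences of miR-422a and miR-422b from miR-378 shifted by -0.15 and 0.22, with groups that overlapped (exact permutation p = 0.5 and 0.2). That test cannot give a p below 0.1 with these arrays, so it could not have passed.

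MiR-346 and miR-423-5p were the 2 members that rose. MiR-346, made from within the glutamate receptor gene GRID1, was at 10.12, 10.45 and 9.67 in Mock and at 10.98, 10.86 and 10.76 in HDAC6. MiR-423-5p, known as a circulating marker of heart failure, was at 9.45, 9.33 and 9.82 in Mock and at 10.10, 10.55 and 10.20 in HDAC6. All HDAC6 arrays lay above all Mock arrays for both. MiR-346 rose 1.72-fold (log2 0.78, SE 0.239, limma adjusted p = 0.0292) and miR-423-5p 1.68-fold (log2 0.75, SE 0.222, adjusted p = 0.0274). Neither passed with control centring (0.0869 and 0.0825). MiR-346 passed without Mock array 2 and with no other array left out (0.0602 to 0.0984), and miR-423-5p passed without Mock array 3 and with no other left out (0.0538 to 0.0789).

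The arms of 3 hairpins moved unequally. For miR-324 the 5p arm fell relative to the 3p arm, and for miR-423 and miR-342 the 5p arm rose relative to the 3p arm. Differences between arms were taken array by array and tested with limma over all 102 pairs of arms, so they do not depend on how arrays are centred. Some guide probes outside the members, such as miR-24, entered more than once, with star strands of different loci. Of the 10 pairs that include a member, 3 passed, against 25.5% of all pairs.

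In miR-324 the 5p arm minus the 3p arm was -1.04, -1.71 and -0.70 on the Mock arrays and -3.42, -2.84 and -3.02 on the HDAC6 arrays. Every HDAC6 array lay more than 1 log2 unit below every Mock array. The shift was -1.94 (SE 0.348, limma adjusted p = 0.0098 over the pairs), a 3.84-fold change in the ratio of the arms. MiR-324-3p itself was at 10.05, 10.67 and 10.04 in Mock and at 10.82, 10.97 and 10.39 in HDAC6, a fold change of 0.47 that did not pass (adjusted p = 0.166).

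In miR-423 the 5p arm minus the 3p arm was 0.70, 0.92 and 0.76 in Mock and 2.31, 1.97 and 2.24 in HDAC6. The arrays of a group lay close together, with a wide gap between groups. The shift was 1.38 (SE 0.261, limma adjusted p = 0.0113), a 2.61-fold change in the ratio. MiR-423-3p was at 8.76, 8.42 and 9.06 in Mock and at 7.79, 8.58 and 7.96 in HDAC6, with overlap and a fold change of -0.64 that did not pass (adjusted p = 0.0946). The shifts of miR-324 and miR-423 passed under every alternative tried at the same threshold.

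In miR-342 the 5p arm minus the 3p arm was -3.02, -2.83 and -2.35 in Mock and -1.35, -1.51 and -1.49 in HDAC6. The shift was 1.29 (SE 0.286, limma adjusted p = 0.0168), and it was lost without Mock array 2 (0.0512) or HDAC6 array 1 (0.0527). MiR-342-5p was at 6.55, 6.83 and 6.29 in Mock and at 6.27, 6.00 and 5.95 in HDAC6, a fold change of -0.48 that did not pass (adjusted p = 0.104).

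The other pairs did not pass. The 5p arm minus the 3p arm shifted by 0.83 in miR-338 (limma adjusted p = 0.0749), with groups that did not overlap, and this difference passed with the offset (0.0117) and with repeated quantile normalization (0.035). The shift was 0.63 in miR-361 (0.216), -0.17 in miR-330 (0.868) and 0.15 in miR-339 (0.734). In miR-331, where both arms fell, it was -0.01 with a 95% interval from -0.92 to 0.91. MiR-365 minus its star strand shifted by -1.35 (0.0866; 0.0411 without HDAC6 array 2), and miR-425 minus its star strand by 0.37 (0.347), with groups that did not overlap.

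**Figure D3:**
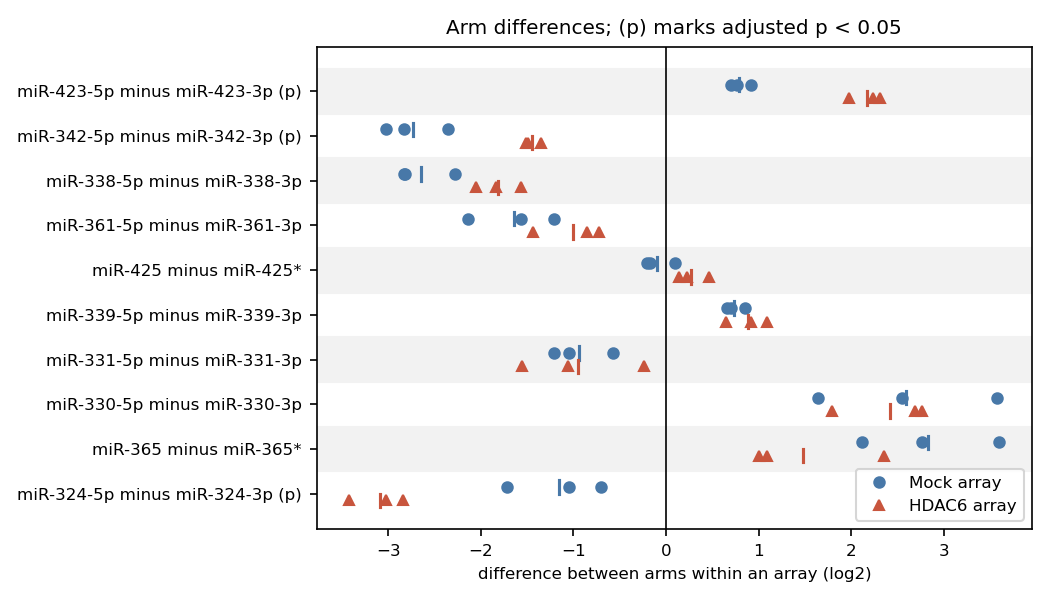
Difference between the arms of a hairpin within an array (x axis, log2; 5p minus 3p, or guide minus star strand) for the 10 pairs with a member, on the 3 Mock arrays (circles) and the 3 HDAC6 arrays (triangles). The groups are apart for miR-324 (Mock mean -1.15, HDAC6 mean -3.09), miR-423 (0.79 and 2.17) and miR-342 (-2.74 and -1.45), the pairs that passed, and also for miR-338 and miR-425, which did not pass.

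Mature probes were also set against the precursor probe of the same miRNA. Of 10 precursor probes of members, 5 rose and none fell, whereas 30.8% of all 104 precursor probes rose and 5.77% fell. The miR-346 precursor rose by 1.18 on log2 (SE 0.199, limma adjusted p = 0.00385), the miR-345 precursor by 0.89 (adjusted p = 0.00756) and the miR-339 precursor by 0.85 (adjusted p = 0.0155). The precursors of miR-326 (0.79) and miR-425 (0.70) rose as well. With control centring 1 of the 5 passed, without HDAC6 array 1 there were 2, and without HDAC6 array 3 there were 3. MiR-346 was the only member of these 5 hairpins whose mature probe rose too.

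Within an array, the mature signal minus the precursor signal was lower in HDAC6 for 6 of 13 pairs and higher for none, against 25.5% lower among all 94 pairs (limma, adjusted over the pairs). For miR-324-5p the difference was 2.25, 3.11 and 2.97 in Mock and 1.09, 1.44 and 0.83 in HDAC6. It shifted by -1.66 (SE 0.341, limma adjusted p = 0.0101), and miR-324-3p, from the same hairpin, by 0.28 (adjusted p = 0.617). The miR-324 precursor itself did not pass (0.19 on log2).

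MiR-345, reported as a growth suppressor in several cancers, was at 8.52, 8.48 and 8.52 in Mock and at 8.11, 7.94 and 8.18 in HDAC6. The groups were apart, but its fold change of -0.43 did not pass (limma adjusted p = 0.0812; 0.0388 with the offset). Its signal minus that of its precursor was -0.58, -0.89 and -0.78 in Mock and -2.07, -2.30 and -1.84 in HDAC6. That shift of -1.32 passed (SE 0.29, limma adjusted p = 0.0138). MiR-339-3p was at 6.69, 6.44 and 6.90 in Mock and at 5.95, 6.30 and 6.13 in HDAC6, a fold change of -0.55 (adjusted p = 0.0637). MiR-339-5p was at 7.54, 7.15 and 7.56 in Mock and at 6.88, 6.96 and 7.23 in HDAC6, a fold change of -0.40 (adjusted p = 0.153). Neither arm of miR-339 passed alone, and relative to the precursor they shifted by -1.39 (adjusted p = 0.0167) and -1.24 (adjusted p = 0.0168).

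The shifts of miR-338-3p (-1.13, limma adjusted p = 0.0297) and miR-422a (-0.92, adjusted p = 0.0446) against their precursors also passed. That of miR-338-3p was also lost without Mock array 1 (0.081), Mock array 2 (0.0626) or HDAC6 array 2 (0.0836). That of miR-422a was lost without any single array other than HDAC6 array 2 (0.0663 to 0.185), with the replicate block (0.0611) and with the offset (0.0509, log2 -0.52). Of the 6 shifts, only that of miR-324-5p passed without HDAC6 array 1. The others then had adjusted p-values of 0.0552 for miR-345, 0.0793 for miR-339-3p, 0.0861 for miR-339-5p, 0.089 for miR-338-3p and 0.148 for miR-422a. Whether a mature probe also bound the hairpin, or a precursor probe the mature strand, was not tested.

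**Figure D4:**
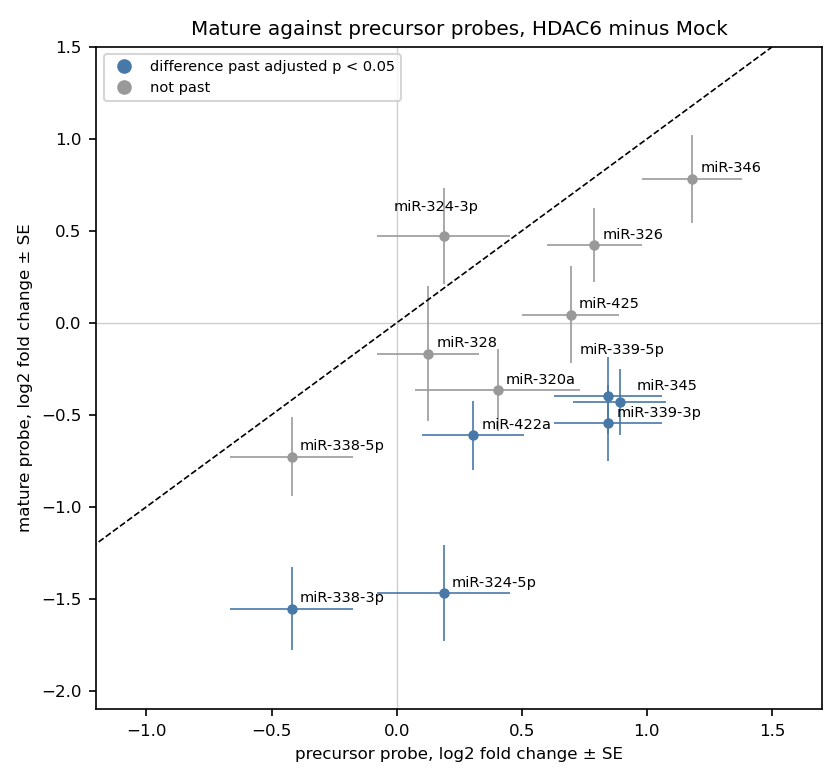
Log2 fold change (HDAC6 minus Mock, ± SE, n = 3 arrays each) of each mature probe (y axis) against that of its precursor probe (x axis) for 13 pairs, with the 6 whose difference passed in colour. The dashed line marks equal change: miR-324-5p lies farthest below it, at -1.47 against 0.19 for its precursor, and miR-346 lies at the upper right, at 0.78 against 1.18.

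Among the members that did not pass, miR-365 and miR-450a lay nearest to the threshold. MiR-365 was at 10.12, 9.84 and 10.72 in Mock and at 8.96, 9.93 and 8.89 in HDAC6, where array 2 stood with the Mock arrays. Its fold change was -0.97 (SE 0.348, limma adjusted p = 0.0527). It passed with median centring (0.0443), among the brighter probes (0.0478), with the intensity trend (0.041), with array weights (0.0101) and without Mock array 2 (0.049) or HDAC6 array 2 (0.014). MiR-450a, an X-linked miRNA, was at 6.80, 6.33 and 6.59 in Mock and at 6.02, 5.96 and 6.08 in HDAC6, a fold change of -0.55 with groups apart (adjusted p = 0.0514). It passed with mature probes alone (0.0477), with array weights (0.0157) and without Mock array 2 (0.0352). MiR-361-5p had a fold change of -0.37 (adjusted p = 0.131) with groups apart as well. MiR-326, known to repress Notch signalling in glioma, was at 6.81, 7.17 and 6.98 in Mock and at 7.28, 7.33 and 7.62 in HDAC6, a fold change of 0.42 (adjusted p = 0.119). Its seed relative miR-330-5p was at 9.0, 9.75 and 8.40 in Mock and at 9.25, 8.42 and 9.28 in HDAC6, and its 95% interval ran from -0.96 to 0.83.

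MiR-375, which restrains insulin secretion in pancreatic islets, had a fold change of -0.22 (limma adjusted p = 0.416) with a 95% interval from -0.71 to 0.27. MiR-328 was at 10.53, 10.96 and 9.45 in Mock and 10.21, 10.14 and 10.09 in HDAC6, and its Mock arrays spread more widely than its HDAC6 arrays. Its fold change of -0.17 (adjusted p = 0.738) had an interval from -1.02 to 0.68. MiR-453 spread likewise in Mock, from 7.21 to 8.70, with a fold change of -0.23. The fold changes of miR-362-5p (-0.10), miR-330-3p (0.11), miR-491-5p (0.08) and miR-425 (0.04) were each smaller than the larger of their group SDs.

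The members were also counted by the roles reported for them, and no list was tested as such. Beside them stand the shares given above, 24.4% that fell and 21.3% that rose among all probes, and 38.5% and 5.13% among the members. Of 15 probes of miRNAs listed as growth suppressors, 6 fell (miR-320c, miR-320d, both arms of miR-338, miR-342-3p and miR-422a) and none rose, with a median of -0.55. The share that fell, 40.0%, was close to that among all members. The list was matched by number, so these 15 include the probe for miR-422b, although miR-378, its later name, is not listed. Of 9 probes of miRNAs listed as raised or growth promoting, 4 fell (both arms of miR-331, miR-374a and miR-374b) and 2 rose (miR-346 and miR-423-5p), with a median of -0.64. Of 6 probes of miRNAs enriched in brain, 2 fell and 1 rose. Of 21 probes of miRNAs listed as intronic, 6 fell and 2 rose, with a median of -0.40. In RefSeq, 23 of the 34 members with a sequence had at least 1 copy within the bounds of a protein-coding gene, with strand not compared.

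Of 15 probes for miRNAs transcribed together with a member, 7 fell and none rose, with a median of -0.62. The share that fell was 46.7%, against 24.4% of all probes and 29.5% of guide strands. MiR-191, from the same transcript as miR-425, fell by 1.41 (SE 0.221, limma adjusted p = 0.00347), while miR-425 was at 0.04 (adjusted p = 0.903). MiR-193a-3p, from the cluster of a miR-365 copy, fell by 1.47 (adjusted p = 0.0177). Of the X-linked neighbours of miR-362, miR-188-5p fell by 1.03 (adjusted p = 0.00503), miR-500 by 1.11 (0.0411), miR-532-5p by 1.0 (0.0288) and miR-660 by 0.62 (0.0404), and miR-362-5p did not pass. MiR-503, a neighbour of miR-450a, fell by 0.71 (adjusted p = 0.0155). The differences between partners were not tested. The count was 3 without Mock array 1, HDAC6 array 1 or HDAC6 array 3, with repeated quantile normalization or with the offset, and 4 with control centring or the replicate block.

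The members were also set beside guide strands with lower and higher numbers. Guide strands numbered under 320, let-7 included, had a median log2 fold change of -1.03, and 62.1% fell and 5.65% rose. Those numbered 550 and above had a median of 0.35, and 7.22% fell and 34.4% rose. The members' median of -0.48 and their share that fell, 38.5%, lay between these values, but their share that rose, 5.13%, was below both. Base composition was set against the fold change as a description. Over the 34 members with a sequence, the GC content, from 31.8% to 73.9%, had a Pearson r of 0.407 and a Spearman rho of 0.42 with the log2 fold change. Over the 125 of 347 other guide strands whose names matched RefSeq exactly, the values were 0.226 and 0.289. Members were also matched by hand where names had changed, so the sets were not chosen alike. The median fold change was -0.85 in the 10 members under 50% GC and -0.41 in the 12 members with 60% or more. All these points share the same 6 arrays, and the part of base composition in the fold changes was not tested.

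**Figure D5:**
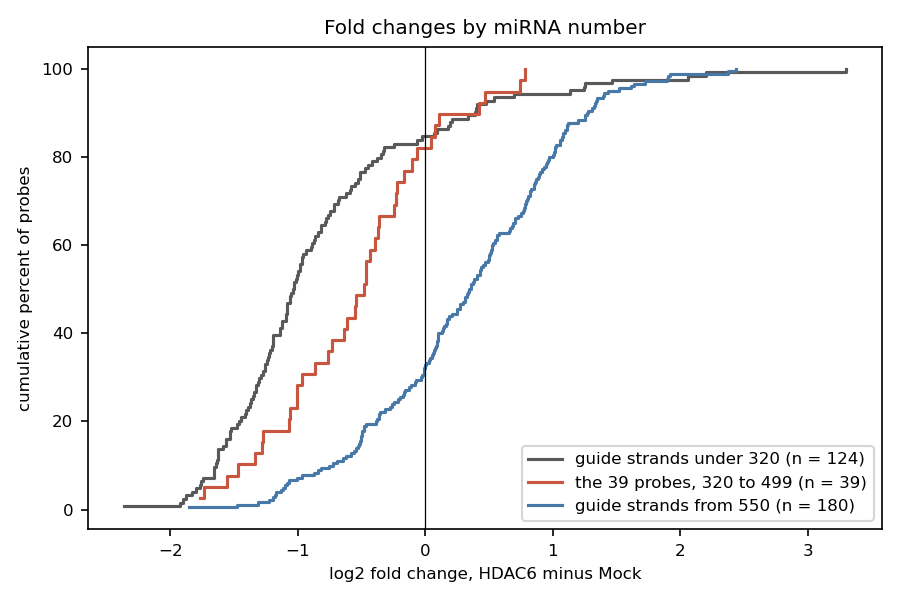
Cumulative percent of probes (y axis) by log2 fold change, HDAC6 minus Mock (x axis), for the 39 members and for guide strands with lower and higher numbers. The members' median of -0.48 lies between that of numbers under 320 (-1.03) and that of numbers from 550 (0.35). The curves cross at both ends.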

How the data were processed

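Signals were measured on GenoExplorer microRNA chips with 10 ug of biotin-labelled RNA. Per the labels, the authors read the arrays with GenePix Pro 5.0 and averaged 3 spots for each probe. GenePlex 3.0 then served for quantile normalization and a class filter, with versions from the submitters' processing notes. The log2 scale of the deposited signals was read from the values. How background was corrected and how the filter worked is not given in the sources used here. In all, the table held 582 rows, 1 of them blank. The number of arrays limits the precision.

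Groups came from the sample titles. HDAC6 was compared with Mock with R 4.3.3 and limma 3.58.1 (lmFit, eBayes, two-sided, without covariates) over all 581 probes with Benjamini-Hochberg adjustment and a threshold of 0.05. Differences between arms (102 pairs) and between mature and precursor probes (94 pairs) were fitted likewise. Relatives were compared by exact permutation tests. The procedure was tested on simulated data.

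Members and lists were chosen with earlier results of these data known. By rule, every member could be named, with values on every array for those past the threshold and for miR-324, miR-339, miR-342, miR-345 and miR-423. No guide-strand probe of miR-335 was among the values used. The array values of other members were added after they were seen. Probes were matched to RefSeq by name for 37 members, and 34 had a sequence in the table used. Probe sequences were not used here, so binding of relatives could not be checked.

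Alternatives were median centring, repeated quantile normalization, centring on the control probes, an added offset (25th percentile of the antilogged signals), brighter or mature probes only, array weights, robust priors with an intensity trend, a replicate block, an adjusted p under 0.01, and leaving out each array.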

Additional observations from a re-analysis of the deposited data

How the results depend on the processing

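Against 15 members lower and 2 higher, centring on the control probes gave 9 and 0, and an adjusted p under 0.01 gave 6 and 0. With the brighter probes alone 9 were lower, but the dimmer members were not in that fit. No member in it lost its call, and miR-365 was added (limma adjusted p = 0.0478). Without 1 array at a time the members lower numbered 8 to 16, those higher 0 to 1, and the median fold change was -0.56 to -0.46; the offset gave a median of -0.32. Arm differences numbered 1 to 2 higher and 1 to 2 lower without 1 array, and mature probes lower than their precursors 1 to 5. Deviations of same-numbered arrays correlated at 0.16, -0.0865 and 0.192, and those of differently numbered arrays at -0.292 to 0.191. With so few arrays, these values cannot decide whether the replicate numbers pair the arrays. With the replicate block 14 members fell and 2 rose. The block also gave 2 arm differences higher, 1 lower, and 5 mature probes lower than their precursors. Of the 17 members past the threshold, 7 passed under every alternative but the stricter threshold: miR-320d, miR-324-5p, miR-331-3p, miR-338-3p, miR-342-3p, miR-374a and miR-374b. MiR-331-3p and miR-374b were too dim for the set of brighter probes, so that alternative was not run for them. Of the 22 others, 7 passed under at least 1 alternative. Signs turned only for values that did not pass. MiR-330-5p was 0.017 with control centring and 0.084 with array weights, and miR-425 was -0.11 with array weights. The miR-331 arm difference was 0.22 with the offset and 0.41 with repeated quantile normalization, and the miR-339 arm difference was -0.065 with the latter. Without 1 array, the lowest and highest values were -0.39 and 0.28 for miR-330-5p, -0.16 and 0.19 for miR-425, -0.60 and 0.16 for miR-328, -0.038 and 0.26 for miR-330-3p, -0.66 and 0.080 for miR-453, -0.65 and 0.32 for the arms of miR-330, and -0.37 and 0.29 for those of miR-331. Against the precursor they were -0.033 and 0.73 for miR-324-3p, -0.63 and 0.083 for miR-328, and -0.64 and 0.019 for miR-338-5p. The causes were not tested. Repeated quantile normalization for pairs, and leaving out arrays for the miR-320 differences (miR-320d minus miR-320b -0.93 to -0.83, miR-320c minus miR-320b -0.60 to -0.49), were chosen after seeing the data. No detection flag was used, so how far a dim probe stood above background could not be read.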
